A study of Mus musculus with 10 samples.

Results

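The comparison set 3 ΔLARM1/2 mutant libraries against 2 wild type libraries of mouse digit tip at 14 days post amputation (dpa), 5 of the 10 libraries of the series; the other 5 are the same genotypes at 12 dpa. The libraries were chosen by their titles. ΔLARM1/2 is a deletion of the enhancers LARM1 and LARM2, which drive Lmx1b in the limb, so the mice lack limb enhancer activity and not the Lmx1b gene itself. All animals had a mixed CD1 and C57Bl/6 background and were 35 days old at 14 dpa. Each library pooled tissue from 6 amputated central hindlimb digits, labelled as blastema, and total RNA was sequenced. The labels name no other allele or agent, and do not say whether replicates came from separate animals, so the spread behind the p-values is that of the libraries and may in part be technical. The series title concerns digit tips that fail to regenerate without Lmx1b, and roles of the gene apart from dorsoventral polarity.

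Lmx1b encodes a LIM homeodomain protein that gives the dorsal side of the limb its identity. The nail is a dorsal structure: its matrix is a specialised epithelium that builds a plate of hard keratins crosslinked by keratin-associated proteins. In the amputated mouse digit tip, wound epidermis closes over the stump and a blastema of proliferating connective tissue cells then rebuilds bone, dermis and vessels, a process known to depend on the nail epithelium and its Wnt signalling.

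Levels are CPM, counts scaled to a common library total after edgeR's TMM factors, given in the order wild type replicates 1 and 2, then mutant replicates 1, 2 and 3. Fold changes are log2, mutant minus wild type, with adjusted p-values from edgeR's quasi-likelihood test over 20216 genes, called at an adjusted p under 0.05. Total counts ran from 69998104 to 101632364. Genes of the deposited protein-coding table took 81.5% and 87.7% of counts in wild type and 90.9% to 91.8% in mutants, and Ensembl identifiers without a name took 12.7% and 7.05% in wild type and 4.85% to 5.75% in mutants. Wild type replicate 1 thus stood furthest apart in RNA composition. By Y-linked counts each genotype held male and female libraries, with 1 female in each. Wild type replicate 1, called male with 12561 Y-linked counts, also had 1292 Xist counts, where the other male libraries of the series had 11 to 46; whether its pool held digits of both sexes was not tested. The library titled mutant 14 dpa replicate 1 has a genotype tag of wild type. Its title and description make it mutant, it was treated as such, and its Lmx1b level lay with the other mutants. Counts for gene lists were repeated with each of the 5 libraries left out in turn, always in the order above. Where leaving out 1 library ended the call of a named gene, the highest such adjusted p is given with that library and the number of the 5 libraries whose omission ended the call. In the list counts the third of 5 such counts is without the tagged library.

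Lmx1b, the gene whose enhancers are deleted, was lower in every mutant library. Wild type libraries read 2.14 and 1.69 CPM, mutants 0.234, 0.0696 and 0.0278 CPM, which are 147 and 164 against 18, 7 and 2 counts. The highest mutant, replicate 1, lay well below the lower wild type library. Mutants were lower by a log2 fold change of -4.11 (SE 0.70, adjusted p = 0.00402), and of -5.19 without mutant replicate 1. Placing that library in wild type, as its tag says, gave an adjusted p of 0.568.

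**Figure D1:**
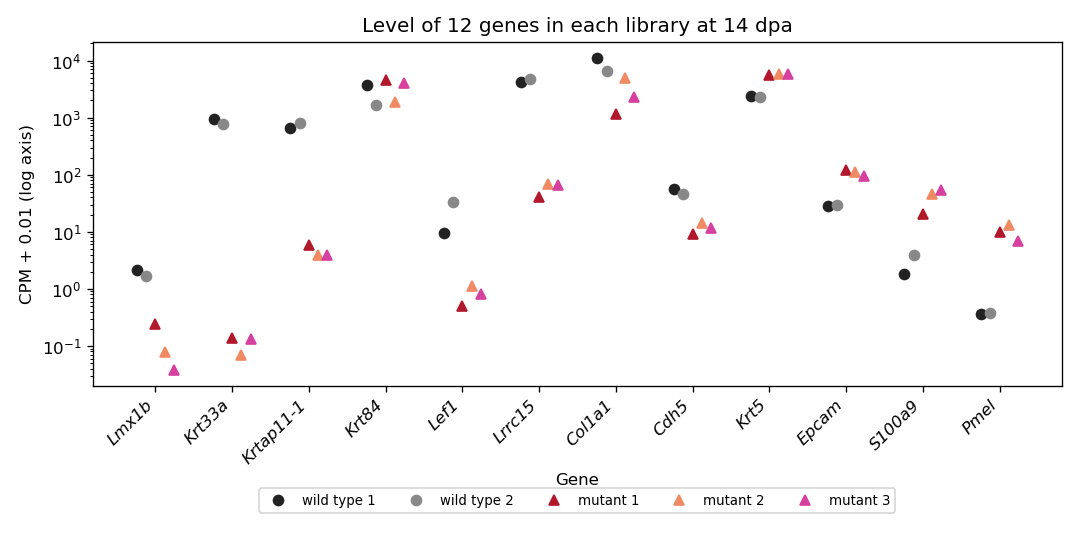
Normalised level of 12 genes in each 14 dpa library (CPM + 0.01, log axis), with wild type libraries as circles and mutant libraries as triangles. Hard keratin, fibroblast and endothelial genes lie lower in every mutant, Krt84 overlaps between the genotypes, and Krt5, Epcam, S100a9 and Pmel lie higher in every mutant.

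The genotypes differed in 6728 genes at 14 dpa, of which 5316 were in the protein-coding table. Higher calls numbered 3251, which is 16.1% of genes tested, and lower calls 3477, or 17.2%. The losses were larger than the gains: 2623 genes fell and 752 rose by more than 2-fold, and beyond 8-fold 427 fell and 88 rose. The median log2 fold change was 0.665 among higher calls and -1.49 among lower calls, against -0.0022 over all genes tested. Higher calls made up 48.3% of all calls, and 36.4% with upper quartile factors or 69.9% and 69.3% on the TPM scale with a pseudocount of 1 or 0.1, which moved the median over all genes by -0.11, 0.1 and 0.22. In 30.8% of genes all mutants lay above both wild type libraries, and in 31.6% all lay below. The first principal component of the 5 libraries took 66.9% of the variance and set the genotypes apart, with the wild type pair close together and the mutants spread from replicate 2, nearest to wild type, to replicate 1. Because these are pieces of tissue, fewer cells of a type and less RNA per cell cannot be told apart in any result that follows. Higher calls numbered 1161 without wild type replicate 1 and 851 without wild type replicate 2, and lower calls 1387 and 1782, so the number of calls rests on having both wild type libraries. Without mutant replicate 1, 4578 of the 6728 calls passed again and 0 in the opposite direction. With the tagged library in wild type 0 genes passed, with 1748 at an unadjusted p under 0.05.

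The structural genes of the nail plate showed the largest losses. Of 15 tested hard keratins, the intermediate filament proteins of nail and hair, 13 fell and 0 rose (median log2 fold change -6.45). With each library left out in turn, 12, 11, 12, 12 and 12 fell. Krt33a, a type I hard keratin, read 954 and 783 CPM in wild type and 0.13, 0.0597 and 0.125 CPM in mutants (-13.04, SE 0.71, adjusted p = 9.71e-05). The mutant values correspond to 10, 6 and 9 counts, so its transcript was close to absent in all mutants. Krt35, a type I keratin of early hard keratinization, read 260 and 693 CPM against 0.378, 0.587 and 0.819 CPM (-9.65, SE 0.64, adjusted p = 0.000238). The type II keratin Krt86 read 3240 and 2180 CPM against 2.62, 0.895 and 3.94 CPM (-10.10, SE 0.85, adjusted p = 0.000561). The type II keratin Krt87 kept more of its level, at 4510 and 5840 CPM in wild type and 107, 75.5 and 89.1 CPM in mutants (-5.84, SE 0.45, adjusted p = 0.000249).

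A pair of hard keratins did not pass, and their libraries overlapped between the genotypes. Krt84 read 3760 and 1690 CPM in wild type and 4480, 1910 and 4060 CPM in mutants (adjusted p = 0.56). Krt36 read 2540 and 1550 CPM against 2260, 1260 and 2610 CPM (adjusted p = 0.999). Both are hard keratins also known from the filiform papillae of the tongue. In both genes mutant replicate 2 was the lowest mutant and wild type replicate 2 the lower wild type library, and both of those libraries are female. Krt84 and Krt36 together took most of the hard keratin counts that remained in mutants; the summed level of the list was 28470 and 25540 CPM in wild type and 6919, 3300 and 6855 CPM in mutants.

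Keratin-associated proteins, which crosslink hard keratin filaments through disulfide bonds, fell in 43 of 44 tested members and rose in 0 (median -8.22). The number that fell was 35, 39, 41, 42 and 42 with each library left out. Their summed level was 18800 and 14070 CPM in wild type and 598, 170 and 540 CPM in mutants. Krtap16-3 read 196 and 125 CPM in wild type and 0 counts in all 3 mutants, and was at least 12800-fold lower with the floor set at 3 counts over the group. Krtap9-1 read 182 and 120 CPM against 0, 0.00994 and 0 CPM, a ratio of wild type to mutant of 36400 with a 95% counting interval of 6530 to 1440000. Krtap11-1 read 650 and 792 CPM against 5.77, 3.86 and 3.96 CPM (-7.32, SE 0.52, adjusted p = 0.000249). Some members kept a measurable level: Krtap7-1, a glycine- and tyrosine-rich type, read 1370 and 1170 CPM against 99.9, 29.8 and 76.6 CPM (-4.21, SE 0.59, adjusted p = 0.0025). Reads of such near-identical genes can be divided among family members, so values of single members are uncertain.

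**Figure D2:**
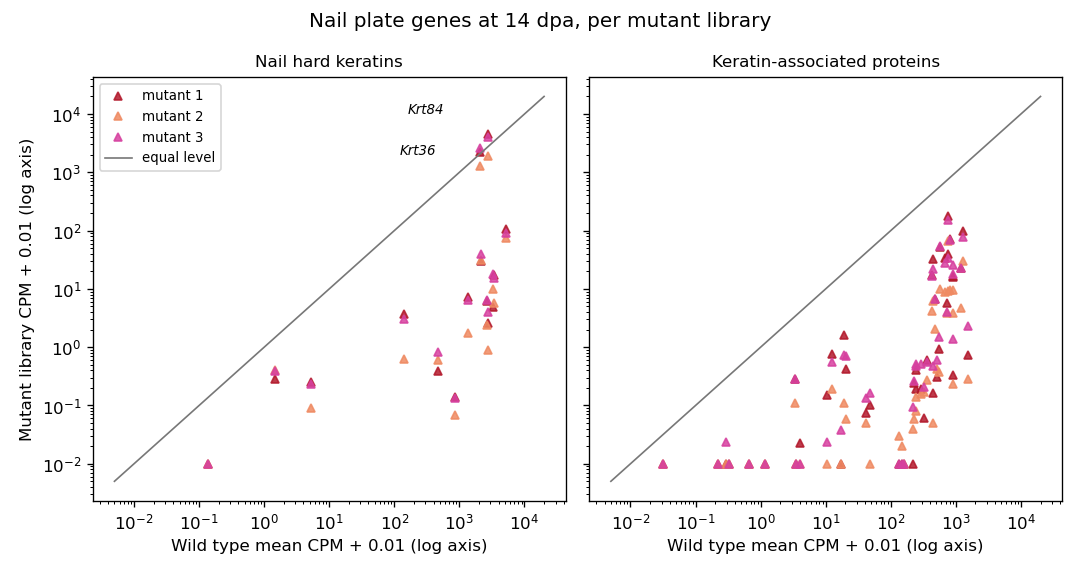
Normalised level of every tested hard keratin and keratin-associated protein (CPM + 0.01, log axis), mean of the 2 wild type libraries on the x axis and each mutant library on the y axis. Nearly all points lie far below the line of equal level, Krt84 and Krt36 lie near it, and mutant replicate 2 holds the lowest points for most keratin-associated proteins.

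Promoters of these genes are shown because the family fell together while Krt84 did not pass. The windows run from 250 bases before to 50 after the transcript start, 5′ to 3′ on the gene's strand, from RefSeq on build GRCm38.p6. Capitals mark CTTTGA, the core bound by LEF and TCF factors, TATAAA, the TATA box, and TAATTA, a homeodomain core, each searched on both strands; no matches overlapped in these windows.
Krtap16-3 (chr16:88962824-88963123, minus strand): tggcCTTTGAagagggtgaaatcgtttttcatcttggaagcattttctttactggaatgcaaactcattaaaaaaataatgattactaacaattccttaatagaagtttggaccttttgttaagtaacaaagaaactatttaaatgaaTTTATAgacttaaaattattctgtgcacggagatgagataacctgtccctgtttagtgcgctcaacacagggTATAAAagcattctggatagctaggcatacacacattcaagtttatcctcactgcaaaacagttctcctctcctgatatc
Krtap11-1 (chr16:89571134-89571433, minus strand): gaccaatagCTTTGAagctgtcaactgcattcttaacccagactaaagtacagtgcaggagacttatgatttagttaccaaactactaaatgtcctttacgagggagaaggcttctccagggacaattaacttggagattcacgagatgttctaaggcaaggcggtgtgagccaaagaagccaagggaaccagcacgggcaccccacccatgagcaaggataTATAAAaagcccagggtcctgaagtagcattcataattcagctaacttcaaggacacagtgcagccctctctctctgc
Krt33b (chr11:100029819-100030118, minus strand): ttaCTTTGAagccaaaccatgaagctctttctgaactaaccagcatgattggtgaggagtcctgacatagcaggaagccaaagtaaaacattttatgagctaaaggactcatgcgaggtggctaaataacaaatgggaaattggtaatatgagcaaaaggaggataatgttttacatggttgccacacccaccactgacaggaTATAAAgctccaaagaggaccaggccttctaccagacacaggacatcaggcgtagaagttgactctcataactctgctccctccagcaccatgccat
Krt84 (chr15:101532771-101533070, minus strand): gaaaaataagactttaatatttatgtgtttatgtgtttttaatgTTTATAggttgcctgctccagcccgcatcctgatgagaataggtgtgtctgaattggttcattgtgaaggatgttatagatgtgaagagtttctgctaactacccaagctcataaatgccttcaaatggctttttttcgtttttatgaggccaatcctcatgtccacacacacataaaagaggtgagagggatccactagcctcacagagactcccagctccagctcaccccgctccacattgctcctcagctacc

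The first 3 windows each hold CTTTGA near their far end, at -246, -241 and -247 from the start, and TATAAA at -30, -28 and -47. The Krt84 window holds neither on that strand as an exact match, and has TATAAA only in reverse at -206. It does hold cataaaag, a near match to TATAAA, shortly before the start. These windows are chosen examples, that of Krt33b chosen after its values were seen, so they do not stand for their families. The promoter of Krt36 is not shown, and a link between these motifs and the losses was not tested. Over the 41 of 44 keratin-associated proteins found in the table, 82.9% of windows held TATAAA, 36.6% CTTTGA and 22.0% TAATTA, against 13.6%, 16.0% and 5.29% of all 32851 windows of the same length. For 9 of 15 hard keratins the shares were 66.7%, 55.6% and 11.1%. A match is only a stretch of letters in this window, and binding was not measured. Over all genes called lower the shares were 12.3%, 13.5% and 4.24%, and over all called higher 6.98%, 11.4% and 2.39%. Over the windows of all genes tested they were 8.39%, 12.6% and 3.09%. Lower calls thus lay above the tested genes for each motif, and higher calls below. The lower calls include the keratin-associated proteins themselves. Cornified envelope genes, of which 15 rose and 0 fell, held the motifs in 46.2%, 23.1% and 7.69% of windows. Shares above those of the tested genes were thus not confined to lists that fell.

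Regulators and other genes of nail matrix and shaft differentiation fell in 10 of 19 tested members and rose in 2 (median -0.703). Without each library in turn, 7, 7, 7, 7 and 7 fell and 0, 0, 2, 2 and 1 rose. Gprc5d, an orphan receptor of hard keratinizing cells, read 185 and 222 CPM in wild type and 0.026, 0 and 0 CPM in mutants, a ratio of 25800 with a 95% counting interval of 7130 to 213000. Dsg4, a desmosomal cadherin of hair and nail, read 207 and 460 CPM against 16.1, 14.4 and 13.1 CPM (-4.52, SE 0.39, adjusted p = 0.000539). Msx2, a homeobox gene of nail matrix and distal mesenchyme, read 47.4 and 96.5 CPM against 3.55, 9.72 and 8.36 CPM (-3.32, SE 0.47, adjusted p = 0.00274). Hoxc13, which regulates hard keratin genes, fell less, from 86.3 and 184 CPM to 52.9, 54.5 and 67.0 CPM (-1.22, SE 0.30, adjusted p = 0.0159). Dlx3, a homeobox gene of hair and nail, overlapped, at 154 and 185 CPM against 168, 121 and 146 CPM (adjusted p = 0.399). The corepressor Hr was among the 2 that rose, from 555 and 623 CPM to 1140, 952 and 931 CPM (0.77, SE 0.19, adjusted p = 0.0138). The call ended without some single libraries for Hoxc13 (adjusted p = 0.107 without wild type replicate 2, the highest among 2 such libraries) and Hr (adjusted p = 0.0977 without wild type replicate 1, the highest among 2 such libraries).

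Wnt signalling genes known from the nail matrix were among the losses. Of 58 tested ligands, receptors, modulators and targets of the Wnt pathway, 19 fell and 5 rose (median -0.468). Leaving out each library gave 12, 6, 12, 20 and 14 lower and 3, 2, 5, 6 and 5 higher. Rspo4, a secreted Wnt agonist whose loss in humans causes absence of nails, read 5.09 and 4.5 CPM in wild type and 0.299, 0.547 and 0.347 CPM in mutants (-3.58, SE 0.47, adjusted p = 0.00156). Lef1, a nuclear effector of the pathway, read 9.67 and 32.9 CPM against 0.482, 1.1 and 0.819 CPM (-4.72, SE 0.63, adjusted p = 0.00222). The wild type libraries differed from each other in Lef1 by more than 3-fold, yet every mutant lay below both. The related factor Tcf7 read 46.4 and 61.3 CPM against 18.6, 23.5 and 21.5 CPM (-1.35, SE 0.24, adjusted p = 0.00446). Wls, which carries Wnt proteins to the surface, fell slightly, from 157 and 155 CPM to 102, 119 and 116 CPM (-0.47, SE 0.11, adjusted p = 0.0114). The coreceptor Lrp5 rose, from 107 and 114 CPM to 214, 152 and 156 CPM (0.66, SE 0.17, adjusted p = 0.0175). Some single libraries, left out, ended the call for Lrp5 (adjusted p = 0.104 without wild type replicate 1, the highest among 2 such libraries) and Wls (adjusted p = 0.0666 without wild type replicate 1, the one such library).

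Other growth factor pathways had calls in part of their members. Of 43 BMP and TGF-beta genes 14 fell and 3 rose (median -0.321), and of 27 FGF genes 9 fell and 3 rose (median -0.447). Once each library was left out, 8, 11, 12, 17 and 11 BMP and TGF-beta genes and 4, 7, 8, 10 and 5 FGF genes fell. Bmp8a, a BMP family ligand, read 8.05 and 14.9 CPM against 0.56, 0.487 and 0.777 CPM (-4.25, SE 0.42, adjusted p = 0.00066). The ligand Fgf18 read 2.25 and 2.17 CPM against 0.195, 0.239 and 0.0833 CPM (-3.64, SE 0.53, adjusted p = 0.0023). In both genes the mutants formed a group far below wild type. Fgfbp1, which releases FGFs from the matrix, rose from 31.4 and 36.4 CPM to 74.5, 61.9 and 81.1 CPM (1.09, SE 0.14, adjusted p = 0.00155). Of 13 Hedgehog pathway genes 2 fell, a share below the 17.2% over all genes, and 1, 1, 1, 2 and 1 fell without each library: the inhibitor Hhip, from 4.46 and 4.22 CPM to 0.729, 0.984 and 0.958 CPM (-2.28, SE 0.23, adjusted p = 0.000654), and the ligand Ihh, at 0.35 and 0.268 CPM against 0.117, 0.0895 and 0.125 CPM (-1.48, SE 0.44, adjusted p = 0.0289). Of 16 Notch pathway genes 4 fell and 2 rose, and of 14 EGF family genes 1 fell and 4 rose. The higher EGF count was 1, 1, 1, 3 and 3 with each library left out, and the lower Notch count 4, 3, 5, 5 and 3. Over all genes 16.1% rose and 17.2% fell. The shares of higher calls among BMP and TGF-beta, FGF and Notch genes lay below the 16.1%. The share of lower calls among EGF genes lay below the 17.2%. A count of 1 higher EGF gene of 14 also lies below the 16.1%. The EGF receptor ligand Epgn was the EGF family gene that fell, from 30.5 and 36.4 CPM to 8.4, 7.56 and 8.22 CPM (-2.05, SE 0.27, adjusted p = 0.00177). Calls that ended with 1 library left out were those of Ihh (adjusted p = 0.147 without wild type replicate 1, the highest among 5 such libraries).

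Limb identity factors fell in 9 of 21 tested members, Lmx1b among them, and rose in 2 (median -1.09). After leaving each library out, 4, 4, 5, 9 and 5 fell and 1, 0, 1, 2 and 1 rose. Shox2, a homeobox gene of limb mesenchyme, read 1.33 and 1.1 CPM in wild type and 0.0521, 0.139 and 0.111 CPM in mutants (-3.55, SE 0.53, adjusted p = 0.00242). Alx4, an anterior limb homeobox gene, read 24.8 and 18.6 CPM against 2.58, 5.99 and 4.47 CPM (-2.31, SE 0.35, adjusted p = 0.00298). Each mutant lay below both wild type libraries for these genes. En1, which marks ventral limb ectoderm, overlapped, at 137 and 110 CPM against 119, 111 and 132 CPM (adjusted p = 0.941). Of 15 limb Hox genes 5 fell and 3 rose, and with each library left out 2, 1, 1, 6 and 2 fell and 2, 0, 2, 4 and 2 rose. Hoxc11 rose from 8.02 and 5.74 CPM to 18.2, 15.6 and 17.9 CPM (1.33, SE 0.24, adjusted p = 0.00494), and Hoxd11 fell from 2.12 and 1.93 CPM to 0.69, 0.815 and 0.708 CPM (-1.45, SE 0.29, adjusted p = 0.00656). Leaving out 1 library at a time ended the call for Hoxc11 (adjusted p = 0.054 without wild type replicate 2, the one such library).

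Genes of basal, suprabasal and cornified epidermis were in part higher in mutants, and those of volar skin were not. Of 18 basal keratinocyte and adhesion genes 8 rose and 0 fell (median 0.665), of 12 suprabasal and wound keratins 5 rose and 0 fell (median 1.15), and of 26 cornified envelope genes 15 rose and 0 fell (median 1.11). After leaving each library out, 5, 4, 7, 8 and 7 basal genes rose, 3, 0, 3, 6 and 3 suprabasal and wound keratins, and 8, 3, 7, 15 and 9 cornified envelope genes. Krt5, the type II keratin of basal keratinocytes, read 2410 and 2270 CPM in wild type and 5660, 5810 and 5830 CPM in mutants (1.30, SE 0.18, adjusted p = 0.00185). Its mutants lay within a few percent of each other, unlike most stromal genes below. The adhesion molecule Epcam read 28.0 and 29.4 CPM against 121, 111 and 94.0 CPM (1.92, SE 0.17, adjusted p = 0.000442). Krt6a, a keratin of wounded and thick epidermis, read 6080 and 3960 CPM against 13500, 14000 and 11700 CPM (1.38, SE 0.27, adjusted p = 0.0067). Krt10 of suprabasal cells read 21400 and 16600 CPM against 59800, 32100 and 39800 CPM (1.21, SE 0.35, adjusted p = 0.0281). Here mutant replicate 1 was clearly the highest. Of 10 volar skin and sweat gland genes 1 rose and 1 fell (median -0.455), and without each library 1, 1, 1, 1 and 1 rose and 0, 1, 0, 0 and 0 fell. Krt9, the keratin of palm and sole epidermis, did not pass, at 89.8 and 54.7 CPM against 34.7, 27.8 and 10.9 CPM (adjusted p = 0.359), with every mutant below both wild type libraries. The call ended without some single libraries for Krt6a (adjusted p = 0.067 without wild type replicate 2, the one such library) and Krt10 (adjusted p = 0.182 without wild type replicate 2, the highest among 4 such libraries).

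The cornified envelope is the crosslinked protein shell of dead keratinocytes. Sprr2d, one of its small proline-rich precursors, read 2.89 and 5.51 CPM in wild type and 95.8, 139 and 157 CPM in mutants (4.95, SE 0.82, adjusted p = 0.0051). Krtdap, a secreted product of differentiating keratinocytes, read 861 and 629 CPM against 1770, 1760 and 1600 CPM (1.20, SE 0.21, adjusted p = 0.00417). Hrnr, a filaggrin-like protein, read 4850 and 3490 CPM against 12100, 5870 and 9110 CPM (1.12, SE 0.34, adjusted p = 0.0331). Filaggrin itself, Flg, did not pass, at 5480 and 3680 CPM against 12900, 7090 and 5730 CPM (adjusted p = 0.0942). The summed level of the cornified envelope list was 20070 and 13610 CPM in wild type and 47710, 28180 and 30090 CPM in mutants, with no overlap. Some single libraries, left out, ended the call for Hrnr (adjusted p = 0.218 without wild type replicate 2, the highest among 4 such libraries).

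Pigment cell genes were higher in mutants. Of 12 tested melanocyte genes 8 rose and 1 fell (median 4.31), but levels were low, and with each library left out 0, 0, 4, 6 and 7 rose, so the calls rest on having both wild type libraries. Tyr, the rate-limiting enzyme of melanin synthesis, had 0 counts in both wild type libraries and 3.49, 3.91 and 1.67 CPM in mutants, at least 173-fold higher with the floor set at 3 counts over the group. Tyrp1, a melanosomal enzyme, read 0.0584 and 0.0413 CPM against 11.6, 10.9 and 5.8 CPM (7.55, SE 1.46, adjusted p = 0.00789). The melanosome matrix protein Pmel read 0.35 and 0.371 CPM against 9.91, 13.3 and 6.83 CPM (4.79, SE 1.11, adjusted p = 0.0148). Mutant replicate 3 was the lowest mutant for each of these. Mitf, the master regulator of melanocytes that other cell types also express, was the member that fell, from 25.0 and 30.2 CPM to 3.36, 4.36 and 3.65 CPM (-2.86, SE 0.37, adjusted p = 0.00198). The background was a mixture of CD1, an albino stock, and C57Bl/6, a pigmented strain, and the part of coat colour genotype in these levels was not tested. Calls that ended with 1 library left out were those of Tyrp1 (adjusted p = 0.0673 without wild type replicate 2, the highest among 2 such libraries), Pmel (adjusted p = 0.0994 without wild type replicate 1, the highest among 2 such libraries) and Tyr (adjusted p = 0.0789 without wild type replicate 2, the highest among 3 such libraries).

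Genes of blastema fibroblasts were mostly lower. Of 23 blastema fibroblast genes 14 fell and 1 rose (median -1.28), and with each library left out 5, 6, 13, 17 and 6 fell. Lrrc15, a membrane protein of activated fibroblasts, read 4240 and 4820 CPM in wild type and 41.1, 68.9 and 64.8 CPM in mutants (-6.28, SE 0.44, adjusted p = 0.000177). Lrrc15 had the largest loss of the 23 genes, far beyond their median of -1.28, so it does not stand for the list. It did not reach 0, and which cells made its RNA was not tested. Mest, an imprinted gene of embryonic and regenerating mesenchyme, read 39.4 and 25.4 CPM against 2.62, 8.35 and 6.22 CPM (-2.50, SE 0.43, adjusted p = 0.00488). Msx1, a homeobox gene of the blastema, read 42.7 and 35.2 CPM against 5.25, 14.6 and 12.2 CPM (-1.87, SE 0.33, adjusted p = 0.00533). Tnc, a wound matrix protein, read 430 and 355 CPM against 71.3, 219 and 170 CPM (-1.36, SE 0.41, adjusted p = 0.0352). The matrix protein Postn did not pass, with 493 and 443 CPM against 163, 408 and 239 CPM (adjusted p = 0.143), though it did without mutant replicate 2 (adjusted p = 0.0278). In all 5 of these genes mutant replicate 1 was the lowest library and mutant replicate 2 the highest mutant. Leaving out 1 library at a time ended the call for Tnc (adjusted p = 0.156 without wild type replicate 1, the highest among 3 such libraries).

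Matrix genes fell across families. Collagens fell in 26 of 42 tested members and rose in 0 (median -1.41), small leucine-rich proteoglycans in 8 of 13, elastic fibre and matricellular genes in 17 of 29, and basement membrane genes in 10 of 19 with 1 higher. Col1a1, the main collagen of bone and dermis, read 11100 and 6580 CPM in wild type and 1140, 4960 and 2260 CPM in mutants (-1.66, SE 0.50, adjusted p = 0.0333). The mutants differed by more than 4-fold among themselves, and none reached wild type. Col4a1 of basement membranes varied less, at 723 and 601 CPM against 138, 190 and 169 CPM (-2.0, SE 0.22, adjusted p = 0.000978). Eln, the elastin gene, read 206 and 207 CPM against 25.9, 64.3 and 46.4 CPM (-2.18, SE 0.31, adjusted p = 0.00246). The proteoglycan Lum, a regulator of collagen fibrils, read 429 and 410 CPM against 63.6, 250 and 151 CPM (-1.44, SE 0.42, adjusted p = 0.032). Col17a1, a hemidesmosomal collagen made by basal keratinocytes, did not pass, at 2800 and 2570 CPM against 3290, 3330 and 3270 CPM (adjusted p = 0.296). Enzymes that modify and crosslink collagen fell in 11 of 18 members and rose in 2. Plod2, a collagen lysyl hydroxylase, read 49.6 and 32.2 CPM against 2.81, 9.99 and 5.73 CPM (-2.72, SE 0.49, adjusted p = 0.00635). Of 36 matrix metalloproteinases, ADAMTS proteases and TIMPs 15 fell and 0 rose, while Mmp2 did not pass, at 201 and 181 CPM against 95.3, 178 and 121 CPM (adjusted p = 0.116, and 0.0177 without mutant replicate 2). These counts moved with single libraries: with each left out, 8, 13, 22, 29 and 14 collagens fell, 2, 2, 7, 12 and 2 proteoglycans, and 7, 10, 15, 21 and 11 elastic fibre and matricellular genes. The corresponding counts were 1, 7, 8, 9 and 7 for basement membrane genes, 3, 10, 11, 15 and 10 for modifying enzymes, and 2, 9, 10, 17 and 9 for proteases and inhibitors. The call ended without some single libraries for Col1a1 (adjusted p = 0.197 without wild type replicate 1, the highest among 3 such libraries) and Lum (adjusted p = 0.122 without wild type replicate 1, the highest among 3 such libraries).

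Skeletal markers fell in part. Of 17 chondrocyte genes 7 fell and 1 rose (median -1.75), and of 24 osteoblast and osteocyte genes 6 fell and 2 rose (median -1.77). With each library left out, 4, 5, 6, 9 and 5 chondrocyte genes and 1, 3, 4, 15 and 1 osteoblast and osteocyte genes fell. Over all genes 17.2% were called lower, and the chondrocyte share lay above that in each of these fits. The osteoblast and osteocyte share lay above it with all libraries. With 1 library left out it lay below, except without mutant replicate 2. Col2a1, the main cartilage collagen, read 6.74 and 4.44 CPM in wild type and 0.013, 0.0398 and 0.0416 CPM in mutants (-7.38, SE 0.54, adjusted p = 0.000177). Col10a1 of hypertrophic cartilage read 91.8 and 44.9 CPM against 1.99, 1.03 and 2.48 CPM (-5.23, SE 0.47, adjusted p = 0.000654). Both were nearly lost in all mutants. Runx2, the master regulator of osteoblasts, read 42.8 and 25.4 CPM against 7.16, 19.9 and 10.6 CPM (-1.44, SE 0.38, adjusted p = 0.0229). The cartilage regulator Sox9, which epithelial stem cells also express, did not pass, at 187 and 190 CPM against 190, 199 and 196 CPM (adjusted p = 0.858). Of 14 osteoclast genes 0 passed in either direction by edgeR. Ctsk, the bone-resorbing protease, read 111 and 116 CPM against 40.0, 101 and 185 CPM (adjusted p = 0.964), with mutants on both sides of wild type. Mutant spread was wide for these lists, and mutant replicate 1 was the lowest mutant in 21 of 24 osteoblast and 11 of 17 chondrocyte genes. Some single libraries, left out, ended the call for Runx2 (adjusted p = 0.165 without wild type replicate 1, the highest among 2 such libraries).

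Blood vessel genes fell almost as a block. Of 37 tested blood endothelial genes 35 fell and 1 rose (median -1.91), and with each library left out 30, 31, 34, 36 and 34 fell. Their summed level was 750 and 735 CPM in wild type and 214, 312 and 287 CPM in mutants. Cdh5, the vascular endothelial cadherin, read 56.7 and 46.6 CPM against 9.19, 14.1 and 11.7 CPM (-2.15, SE 0.20, adjusted p = 0.000554). Kdr, the main VEGF receptor, read 32.8 and 29.8 CPM against 3.53, 7.88 and 6.57 CPM (-2.38, SE 0.33, adjusted p = 0.00222). The adhesion molecule Pecam1 read 63.8 and 59.3 CPM against 11.8, 18.0 and 19.3 CPM (-1.91, SE 0.24, adjusted p = 0.00143). Each of these 3 defining markers stayed above 0 in every mutant. Sox7, a transcription factor of endothelium that other cells can express, was the exception, rising from 36.1 and 44.6 CPM to 93.1, 71.2 and 94.2 CPM (1.10, SE 0.15, adjusted p = 0.00198).

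Supporting cells and angiogenic factors followed in part. Of 18 pericyte and smooth muscle genes 10 fell and 0 rose (median -1.62), and with each library left out 5, 8, 10, 11 and 6 fell. Myh11, the smooth muscle myosin, read 8.69 and 7.48 CPM against 0.885, 2.51 and 1.87 CPM (-2.20, SE 0.36, adjusted p = 0.00337), while the pericyte receptor Notch3 did not pass, at 122 and 134 CPM against 153, 125 and 119 CPM (adjusted p = 0.829). Of 6 lymphatic endothelial genes 5 fell, and 2, 2, 2, 2 and 2 with each library left out. Flt4, the receptor for lymphatic growth factors, read 15.9 and 11.8 CPM against 3.48, 2.82 and 2.53 CPM (-2.23, SE 0.23, adjusted p = 0.0007). In the lymphatic list mutant replicate 1 was the highest mutant for 6 of 6 genes, whereas in the blood endothelial list it was the lowest for 36 of 37. Angiogenic factors and receptors had 9 lower and 1 higher of 19, with 4, 5, 7, 8 and 7 lower when each library was left out. Hif1a, the oxygen-sensing transcription factor, read 424 and 552 CPM against 191, 211 and 217 CPM (-1.24, SE 0.19, adjusted p = 0.00243), and its relative Epas1 rose from 163 and 131 CPM to 327, 206 and 195 CPM (0.72, SE 0.23, adjusted p = 0.0373). Calls that ended with 1 library left out were those of Epas1 (adjusted p = 0.253 without wild type replicate 2, the highest among 3 such libraries).

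**Figure D3:**
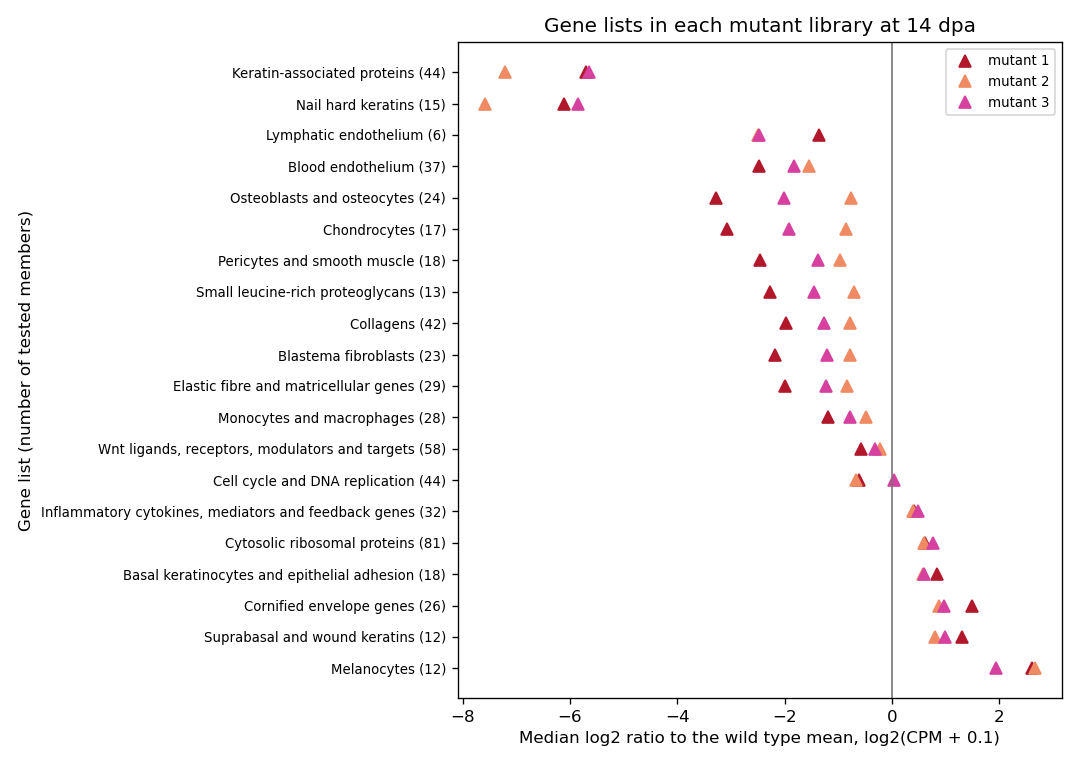
Median log2 ratio of each mutant library to the mean of the wild type libraries, over the tested members of 20 gene lists (log2 of CPM + 0.1). Nail plate lists lie furthest below 0, stromal and vascular lists lie below 0 with mutant replicate 1 lowest except in lymphatic endothelium, and basal, suprabasal and cornified epidermal lists lie above 0.

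The mutants were not alike in the stroma. Mutant replicate 1 was the lowest of the 3 mutants in 34 of 42 collagens, 13 of 13 small leucine-rich proteoglycans, 36 of 37 blood endothelial genes and 19 of 23 blastema fibroblast genes, and mutant replicate 2 was the highest in 33, 12, 30 and 21 of them. Median log2 ratios to wild type for blastema fibroblasts were -2.18, -0.774 and -1.20 in mutant replicates 1, 2 and 3, and for collagens -1.98, -0.789 and -1.26. In the nail lists the order was different: mutant replicate 2 was the lowest mutant in 30 of 44 keratin-associated proteins and 10 of 15 hard keratins. Cornified envelope genes were highest in mutant replicate 1 in 19 of 26 members. Among all genes called lower, mutant replicate 1 was the lowest mutant in 2167 of 3477. The part of cell composition in this order was not tested.

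Some alarmins and inflammatory mediators were higher in mutants. Of 19 alarmins and antimicrobial proteins 7 rose and 3 fell (median 0.859), and of 32 inflammatory cytokines, mediators and feedback genes 12 rose and 1 fell (median 0.47). Log2 fold changes in the first list ran from -7.5 to 3.84, so its largest change was a loss. Without each library in turn, 6, 3, 6, 7 and 8 of the first list and 4, 4, 10, 9 and 8 of the second rose. S100a9, a calcium-binding alarmin of neutrophils and stressed keratinocytes, read 1.82 and 3.94 CPM in wild type and 20.8, 45.9 and 54.1 CPM in mutants (3.79, SE 0.60, adjusted p = 0.0039). Slpi, a secreted protease inhibitor, read 0.467 and 0.98 CPM against 5.89, 6.02 and 4.43 CPM (2.89, SE 0.33, adjusted p = 0.00109). All mutants were several-fold above both wild type libraries. Il1rn, the interleukin-1 receptor antagonist, read 32.1 and 24.6 CPM against 76.5, 67.0 and 71.4 CPM (1.34, SE 0.19, adjusted p = 0.00198). The cytokine Il1b was low, at 0.642 and 0.0722 CPM against 3.37, 5.96 and 3.89 CPM (3.68, SE 1.15, adjusted p = 0.0403). Of 33 chemokines and receptors 5 rose and 1 fell, a share of higher calls below the 16.1% over all genes, and 1, 0, 4, 6 and 3 rose with each library left out. The neutrophil attractant Cxcl2 read 0.19 and 0.0722 CPM against 6.3, 4.94 and 7.97 CPM (5.66, SE 1.19, adjusted p = 0.0106). Leaving out 1 library at a time ended the call for Cxcl2 (adjusted p = 0.084 without wild type replicate 2, the highest among 2 such libraries) and Il1b (adjusted p = 0.179 without wild type replicate 2, the highest among 5 such libraries).

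Immune cell markers had calls in both directions. Of 15 tested neutrophil genes 4 rose, Hcar2 among them, and 1 fell. Of 28 monocyte and macrophage genes 4 fell and 0 rose (median -1.05), a share of lower calls below the 17.2% over all genes. Once each library was left out, 2, 2, 2, 2 and 2 neutrophil genes rose and 0, 2, 1, 11 and 0 macrophage genes fell. With all libraries the neutrophil share of higher calls lay above the 16.1% over all genes, and that of lower calls below the 17.2%. A count of 2 of 15 higher lies below the 16.1%. Which cells made the RNA of the neutrophil list was not tested. Adgre1, the macrophage antigen F4/80, read 4.25 and 2.53 CPM against 0.729, 1.86 and 1.21 CPM (-1.41, SE 0.39, adjusted p = 0.0238). The macrophage receptor Csf1r did not pass, at 18.3 and 21.2 CPM against 15.9, 22.1 and 24.1 CPM (adjusted p = 0.926). Of 15 dendritic cell, Langerhans cell and MHC class II genes 3 rose and 1 fell (median 0.969), and 0, 0, 0, 0 and 0 rose without each library. The share of higher calls was near the 16.1% over all genes. Cd74, the MHC class II invariant chain, rose from 35.8 and 46.0 CPM to 93.0, 93.5 and 111 CPM (1.28, SE 0.42, adjusted p = 0.0446). The neutrophil list member that fell was Ngp of immature neutrophils, from 0.496 and 2.97 CPM to 0.013, 0.199 and 0.0416 CPM (-4.26, SE 1.23, adjusted p = 0.029). Lcn2, a member of the alarmin list that neutrophils and keratinocytes both make, rose from 0.379 and 0.753 CPM to 4.3, 6.42 and 14.0 CPM (3.84, SE 0.78, adjusted p = 0.00916). T and NK cell genes rose in 1 of 13, and interferon response genes rose in 2 and fell in 3 of 37. These shares lay below the 16.1% called higher and 17.2% called lower over all genes. By edgeR 0 of 2 B cell, 0 of 7 mast cell and 0 of 5 erythroid genes passed. The call ended without some single libraries for Ngp (adjusted p = 0.238 without wild type replicate 2, the highest among 3 such libraries), Adgre1 (adjusted p = 0.185 without wild type replicate 1, the highest among 3 such libraries) and Cd74 (adjusted p = 0.217 without wild type replicate 1, the highest among 5 such libraries). Some single libraries, left out, ended the call for Lcn2 (adjusted p = 0.073 without wild type replicate 1, the highest among 2 such libraries).

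Genes of protein synthesis rose together while those of proliferation mostly did not pass. Of 81 cytosolic ribosomal proteins 60 rose and 0 fell (median 0.661), and with each library left out 22, 9, 47, 53 and 35 rose. Rplp0, of the ribosomal stalk, read 1270 and 1360 CPM in wild type and 2380, 2460 and 2650 CPM in mutants (0.92, SE 0.18, adjusted p = 0.00661). Its mutants lay close to each other. Of 44 cell cycle and DNA replication genes 2 rose and 2 fell, and of 60 replication-dependent histones 2 rose and 0 fell. These shares lay below the 16.1% called higher and 17.2% called lower over all genes. After leaving each library out, 1, 0, 0, 1 and 0 cell cycle genes rose and 0, 1, 0, 2 and 6 fell. For histones 1, 1, 3, 2 and 2 rose and 1, 0, 0, 0 and 0 fell. Mybl2, a transcription factor of dividing cells, read 12.0 and 11.6 CPM against 5.31, 6.73 and 7.72 CPM (-0.84, SE 0.23, adjusted p = 0.0216), and the G1 cyclin Ccnd1 rose from 86.4 and 96.3 CPM to 147, 108 and 152 CPM (0.57, SE 0.17, adjusted p = 0.0293). Mutant replicate 3 was the highest mutant in 38 of 44 cell cycle genes and 58 of 60 histones. Of 24 AP-1 and immediate early genes 8 rose and 2 fell, with 6, 1, 7, 8 and 8 higher when each library was left out; they included the epidermal factor Klf4, from 526 and 464 CPM to 1540, 1060 and 1040 CPM (1.29, SE 0.24, adjusted p = 0.00545). Glycolysis and hypoxia genes fell in 8 of 27 and rose in 2, with 3, 2, 6, 9 and 5 lower when each library was left out. The losses included Car9, a hypoxia-induced carbonic anhydrase, from 1.33 and 1.65 CPM to 0.195, 0.328 and 0.125 CPM (-2.76, SE 0.64, adjusted p = 0.012). Calls that ended with 1 library left out were those of Mybl2 (adjusted p = 0.0985 without wild type replicate 1, the highest among 3 such libraries), Ccnd1 (adjusted p = 0.166 without wild type replicate 1, the highest among 4 such libraries) and Rplp0 (adjusted p = 0.0535 without wild type replicate 1, the one such library). Leaving out 1 library at a time ended the call for Klf4 (adjusted p = 0.0517 without wild type replicate 2, the one such library) and Car9 (adjusted p = 0.0572 without wild type replicate 2, the one such library).

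Of 59 semaphorins, ephrins, netrins, slits and receptors, which guide axons and cells, 17 fell and 11 rose, and the share of higher calls was close to the 16.1% over all genes. After leaving each library out, 5, 8, 13, 18 and 9 fell and 4, 6, 7, 11 and 8 rose. The netrin receptor Unc5b fell from 122 and 202 CPM to 39.8, 48.2 and 38.8 CPM (-1.93, SE 0.25, adjusted p = 0.00168). The ephrin receptor Epha1 of epithelia rose from 127 and 116 CPM to 326, 258 and 255 CPM (1.20, SE 0.19, adjusted p = 0.00317). Schwann cell and nerve genes rose in 4 and fell in 1 of 18, and 2, 3, 4, 3 and 4 rose with each library left out. Their share of higher calls was near the 16.1% over all genes, and that of lower calls below the 17.2%. Erbb3, a neuregulin receptor found on Schwann cells and epithelia, rose from 104 and 108 CPM to 226, 182 and 197 CPM (0.93, SE 0.13, adjusted p = 0.00211), and the growth cone protein Gap43 fell from 1.21 and 1.03 CPM to 0.169, 0.288 and 0.208 CPM (-2.32, SE 0.36, adjusted p = 0.00292).

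The genes with the smallest p-values were not all members of these lists. Tmprss11c, a transmembrane serine protease of epithelia, read 137 and 160 CPM in wild type and 2.6, 2.65 and 2.6 CPM in mutants (-5.82, SE 0.23, adjusted p = 6.93e-06). The mutants were nearly identical. Efhd1, a calcium-binding mitochondrial protein, read 26.0 and 38.4 CPM against 2.02, 2.14 and 2.14 CPM (-3.94, SE 0.22, adjusted p = 6.33e-05). Among gains, the acute phase protein Orm1 read 10.8 and 12.7 CPM against 104, 69.9 and 78.2 CPM (2.84, SE 0.23, adjusted p = 0.000319). The nicotinic acid receptor Hcar2, which is a member of the neutrophil list, read 16.5 and 18.0 CPM against 74.0, 57.7 and 62.4 CPM (1.91, SE 0.16, adjusted p = 0.000389). Chil1, a chitinase-like secreted protein, had one of the largest gains, at 0.569 and 6.11 CPM against 71.9, 121 and 224 CPM (5.36, SE 1.51, adjusted p = 0.0333), though the wild type libraries themselves lay far apart. The call ended without some single libraries for Chil1 (adjusted p = 0.125 without wild type replicate 1, the highest among 5 such libraries).

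The comparison at 12 dpa used other libraries. There 3339 genes passed, 1451 higher and 1888 lower, against 6728 at 14 dpa, and 2645 passed on both days in the same direction. That is 39.3% of the calls at 14 dpa and 79.2% of those at 12 dpa. Passing on 1 day only does not show a difference between the days, and the test of that difference called 0 genes (0% of those tested) by edgeR, with 1763 at an unadjusted p under 0.05 and 48 called by DESeq2. Medians at 14 and 12 dpa were -8.22 and -6.23 for keratin-associated proteins, -1.91 and -1.61 for blood endothelium, -1.28 and -1.28 for blastema fibroblasts, and 1.11 and 0.343 for cornified envelope genes.

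Among the 8 genes with the smallest p for the difference between the days, Cxcl14, a chemokine of epidermis, read 200 and 207 CPM in wild type and 264, 313 and 365 CPM in mutants at 14 dpa, and 330 and 312 CPM against 182, 204 and 189 CPM at 12 dpa. The mutants were thus all higher at 14 dpa (0.62, SE 0.15, adjusted p = 0.0124) and all lower at 12 dpa (-0.74, adjusted p = 0.00966), while the difference between the days had an adjusted p of 0.544 by edgeR. Epcam rose at both, by 1.92 at 14 dpa and by 0.54 at 12 dpa (difference 1.38, SE 0.23, adjusted p = 0.544). Bhlhe40, a transcriptional repressor of clock and hypoxia pathways, read 136 and 132 CPM against 267, 252 and 266 CPM at 14 dpa (0.96, SE 0.11, adjusted p = 0.000906) and 171 and 180 CPM against 179, 185 and 199 CPM at 12 dpa (adjusted p = 0.539). Its difference between the days was 0.87 (SE 0.15, adjusted p = 0.544). S100a9 in mutants read 20.8 to 54.1 CPM at 14 dpa and 177 to 374 CPM at 12 dpa, and its genotype difference was 3.79 and 6.28 on the log2 scale (adjusted p = 0.544 for the difference between the days). None of these differences between the days passed by edgeR after adjustment. Some single libraries, left out, ended the call for Cxcl14 (adjusted p = 0.0808 without wild type replicate 2, the highest among 2 such libraries).

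**Figure D4:**
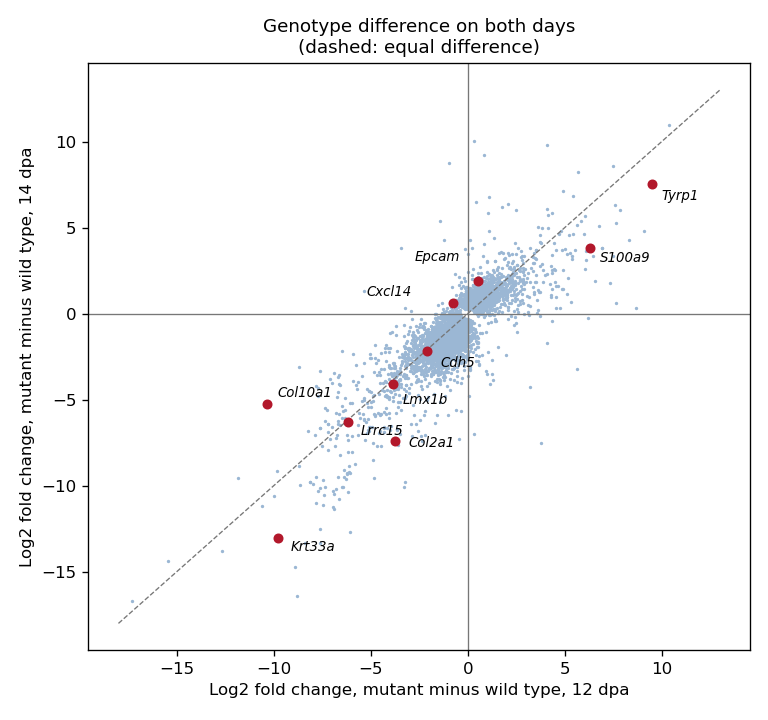
Log2 fold change, mutant minus wild type, at 12 dpa on the x axis and at 14 dpa on the y axis for genes that passed on either day, with the genes named in the text marked. The 2 contrasts share no library, and most points lie where both days have the same sign.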

How the data were processed

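RNA of 5 digit tip libraries at 14 dpa, with 5 at 12 dpa, was analysed from files deposited by the authors: expected counts per gene (not whole where a read fits several genes, not normalized) and TPM values (scaled for length and to a fixed total). FastQC, RSEM 1.3.0, STAR 2.7.8a and build GRCm39 appear, with no role given, in the submitters' processing notes. Expected counts deposited by the authors were rounded to whole numbers. Libraries were made with a stranded kit per the labels' protocols, and how strand was used in counting is not stated there. No genome of that build was used here, so genes carry no coordinates, and promoters are from RefSeq on GRCm38.p6.

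All 10 libraries entered 1 quasi-likelihood fit without covariates (edgeR 4.0.16, limma 3.58.1, R 4.3.3). Settings were filterByExpr minimum count 10 and total 15, TMM factors and prior count 0.125. The biological coefficient of variation was 0.277. The code was checked on simulated counts with a single spread for all genes, which does not measure its error rate in these data. Adjusted p-values are Benjamini-Hochberg values over all genes tested, called under 0.05. Intervals and floors cover counting error only. Sex was read from Y-linked counts (at least 500 for a male). Groups and replicate numbers follow the titles, and the descriptions number the wild type 14 dpa libraries the other way round. Replicates of a group differed beyond counting noise, so none was merged.

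The comparison and the 55 gene lists were chosen with earlier results of these data known. Named genes are Lmx1b, the 3 smallest p and 3 highest levels of each list, the 10 largest folds and 5 smallest p in each direction among calls of at least 1 CPM, and the 8 smallest p for the difference between days; not every gene the rule allows is printed. Lcn2, Il1b, Krt86, Kdr and Msx1, and the promoter of Krt33b, were chosen after their values were seen. Krt85 and Ahsp were not analysed here. Alternatives were other normalizations, filters, tests (DESeq2 1.42.0, limma), TPM, libraries and covariates.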

Additional observations from a re-analysis of the deposited data

Results flagged for a closer look

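In 3 of the genes named above, every mutant library lay above both wild type libraries on 1 day and below both on the other. The differences between the days were tested with edgeR and none passed after adjustment. Cxcl14, a chemokine of epidermis, was higher in all mutants at 14 dpa and lower in all at 12 dpa, a difference between the days of 1.37 on the log2 scale (SE 0.20, adjusted p = 0.544 by edgeR). Col17a1, the hemidesmosomal collagen, moved the same way by 0.79. Ngp, a granule protein of immature neutrophils, was lower in all mutants at 14 dpa and higher in all at 12 dpa, a difference of -7.46. At 12 dpa Ngp was close to 0, at 0.0273 and 0 CPM in wild type and 0.0338, 0.0388 and 0.336 CPM in mutants.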

How the results depend on the processing

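With single libraries left out, genes higher at 14 dpa numbered 851 to 3071 (3251 with all), genes lower 1387 to 3446 (3477 with all), genes differing between the days 0 to 3, and Lmx1b stood at -5.19 to -3.68. Placing mutant replicate 1 in wild type gave 0 higher and 0 lower genes and Lmx1b at -4.71 (adjusted p = 0.568), and reversed Epas1 to -0.05; the cause was not tested. TPM gave 1661 lower genes with a pseudocount of 1 and 1858 with 0.1. Genes differing between the days numbered 1 with no filter, 1 on TPM with a pseudocount of 1 and 48 with DESeq2. Chosen after seeing the data, leaving out both libraries numbered 1 gave 666 higher and 854 lower, and male libraries only gave 119 higher, 458 lower, 2 differing between the days and Lmx1b at -4.06 (adjusted p = 0.0805); fewer libraries entered these fits, and the male fit keeps wild type replicate 1 with its Xist counts. Other settings kept these counts within 1.5 times, and list medians printed above kept their sign with RLE, upper quartile and TPM scaling. Their size was less stable: on TPM with a pseudocount of 1, 29 of 55 list medians moved by at least 1 SD over the mutant libraries. That number was 23 with a pseudocount of 0.1, 7 with upper quartile factors and 0 with RLE factors. Of 84 other named genes with a call, 84 kept it with RLE factors and with DESeq2, 58 without wild type replicate 2 and 37 with male libraries only. With the replicate block 2379 genes were higher and 2513 lower, and Lmx1b stood at -3.93; correlations of same-numbered deviations were 0.0767, 0.038, -0.0295 and -0.0416, so the numbers were not taken to pair libraries. Depth limits single low genes: Tyr and Krtap16-3 had 0 counts in 1 genotype.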
